A study of Homo sapiens with 8 samples.

Results

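The genes described here are 37 components of the Notch signalling pathway, measured among 19775 genes on Affymetrix arrays in a pair of human hepatoma cell lines, Huh7 and Hep-3B, with and without knockdown of KLHL23. They were listed by gene symbol: for each of the 37 symbols, the probe sets that the platform annotation paired with that symbol alone were taken, and the probe set with the highest mean over the 8 arrays stood for the gene. All 37 symbols had such a probe set. The 37 were chosen with earlier results of these data known. They comprise 5 ligands (JAG1, JAG2, DLL1, DLL3, DLL4), 4 receptors (NOTCH1 to NOTCH4), 5 glycosyltransferases that modify the receptors, 4 subunits of gamma-secretase, 6 adaptors and ubiquitin ligases, 4 proteins of the nuclear complex and 9 target genes.

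A Notch receptor sits on the cell surface and is activated by a ligand on its neighbour. The pull of the bound ligand exposes the receptor to a metalloprotease and then to gamma-secretase, which releases the intracellular domain. That domain enters the nucleus, joins the DNA-binding protein RBPJ and a Mastermind-like coactivator, and switches on genes of the HES and HEY families, which encode repressors. In the liver the pathway is known for steering progenitor cells towards the bile duct lineage.

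The arrays formed 4 groups of 2. Huh7 shKLHL23 and Hep-3B shKLHL23 cells carried a lentiviral short hairpin RNA against KLHL23, a gene of the Kelch-like family. Huh7 shLuc and Hep-3B shLuc cells carried one against luciferase, which human cells lack. All 4 groups were infected at a multiplicity of infection of 2, selected with puromycin from 48 hours on and grown in 10% serum. The labels name the hairpin against KLHL23 in the same way for both lines, so what a hairpin does to other transcripts cannot be told apart from loss of KLHL23. In this RNA from whole cultures, fewer cells with a transcript and less of it per cell cannot be told apart either. All values are log2 expression values, a difference of 1 being a doubling on that scale, and levels of different probe sets are not compared.

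The array medians lay between 4.563 and 4.597, and the arrays of a group correlated at 0.995 to 0.998 across the 19775 genes. KLHL23 was at 5.78 and 5.88 on the Huh7 shKLHL23 arrays, against 7.89 and 7.87 on the Huh7 shLuc arrays (difference -2.05, limma adjusted p = 0.00363). In Hep-3B it was at 7.21 and 6.15 with shKLHL23, against 7.81 and 7.84 with shLuc (-1.14, limma adjusted p = 0.0833), so the knockdown arrays differed from each other by more than the nearer of them differed from the controls. Both lines had high levels of ALB (13.47 to 13.62) and AFP (11.41 to 12.72), which mark hepatocytes and hepatoma, whereas the endothelial markers varied: CDH5 and KDR lay between 2.18 and 2.74, below the lower quartile of every array (3.08 to 3.12), and TEK (3.94 to 4.35), VWF (4.49 to 5.02) and PECAM1 (5.25 to 7.18) lay above it. Of the 7 hepatocyte and hepatoma markers, TTR, a plasma carrier protein made by hepatocytes, was called, and it was higher with the hairpin against KLHL23 in Huh7 (1.23, limma adjusted p = 0.00524) and in Hep-3B (1.58, limma adjusted p = 0.0148). The gap between the 3' and 5' control probe sets of ACTB, a sign of RNA quality, moved with the hairpin, and did so in opposite directions: it was 0.52 and 0.55 in Huh7 shKLHL23 against 0.87 and 0.83 in Huh7 shLuc, and 0.74 and 0.75 in Hep-3B shKLHL23 against 0.44 and 0.54 in Hep-3B shLuc. The same gap for GAPDH overlapped in Huh7 (0.15 and 0.11 with shKLHL23, 0.13 and 0.09 with shLuc). In Hep-3B the GAPDH gap was larger with shKLHL23 (0.22 and 0.24) than with shLuc (0.12 and 0.12). The part of TTR and of these gaps in the results below was not tested.

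In Huh7 2 of the 37 genes fell with the hairpin against KLHL23, the ligand JAG1 and the target HEY1, and none rose. A gene was called changed at a limma p, adjusted by Benjamini-Hochberg over all 19775 genes, under 0.05. At that threshold 13.5% of all genes were called in Huh7, and 7.73% were called lower. With the test limited to the 13074 genes above 4.58 on at least 2 arrays, 3287 were called in Huh7. Of the 37 genes, 31 were above that level, and 5 of these were called. In Hep-3B 0 of the 37 were called by limma, where 0.693% of all genes were. At an unadjusted p under 0.05 the counts were 11 in Huh7, 7 of them lower, and 10 in Hep-3B, 6 of them lower. These are 29.7% and 27% of the 37, where 27.5% of all genes in Huh7 and 17.7% in Hep-3B had such a p. The median difference of the 37 was 0.01 in Huh7 and 0.00 in Hep-3B, and that of all genes was 0.00 and 0.02 in the same lines.

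The mean of the differences in the 2 lines, which draws on 4 knockdown and 4 control arrays, passed for 8 of the 37 genes, or 21.6%, where 15.6% of all genes passed. The ligand JAG1, the targets HES1, HEY1 and NRARP and the nuclear proteins RBPJ, MAML1 and MAML2 were lower, and 8.02% of all genes were called lower. The gamma-secretase subunit NCSTN was higher, and 7.6% of all genes were called higher. Among the 13074 genes above 4.58 on at least 2 arrays, 3721 passed, and 9 of the 31 that belong to the 37 did. No difference of the 37 reached 1 in size in either line, and the median of the 37 mean differences was 0.05, against 0.01 for all genes, so the called falls belonged to a minority of the pathway. Without single arrays the 8 became 2 to 9, falling to 2 without any 1 of the 4 shLuc arrays, and HES1 was the 1 gene that passed each time.

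**Figure D1:**
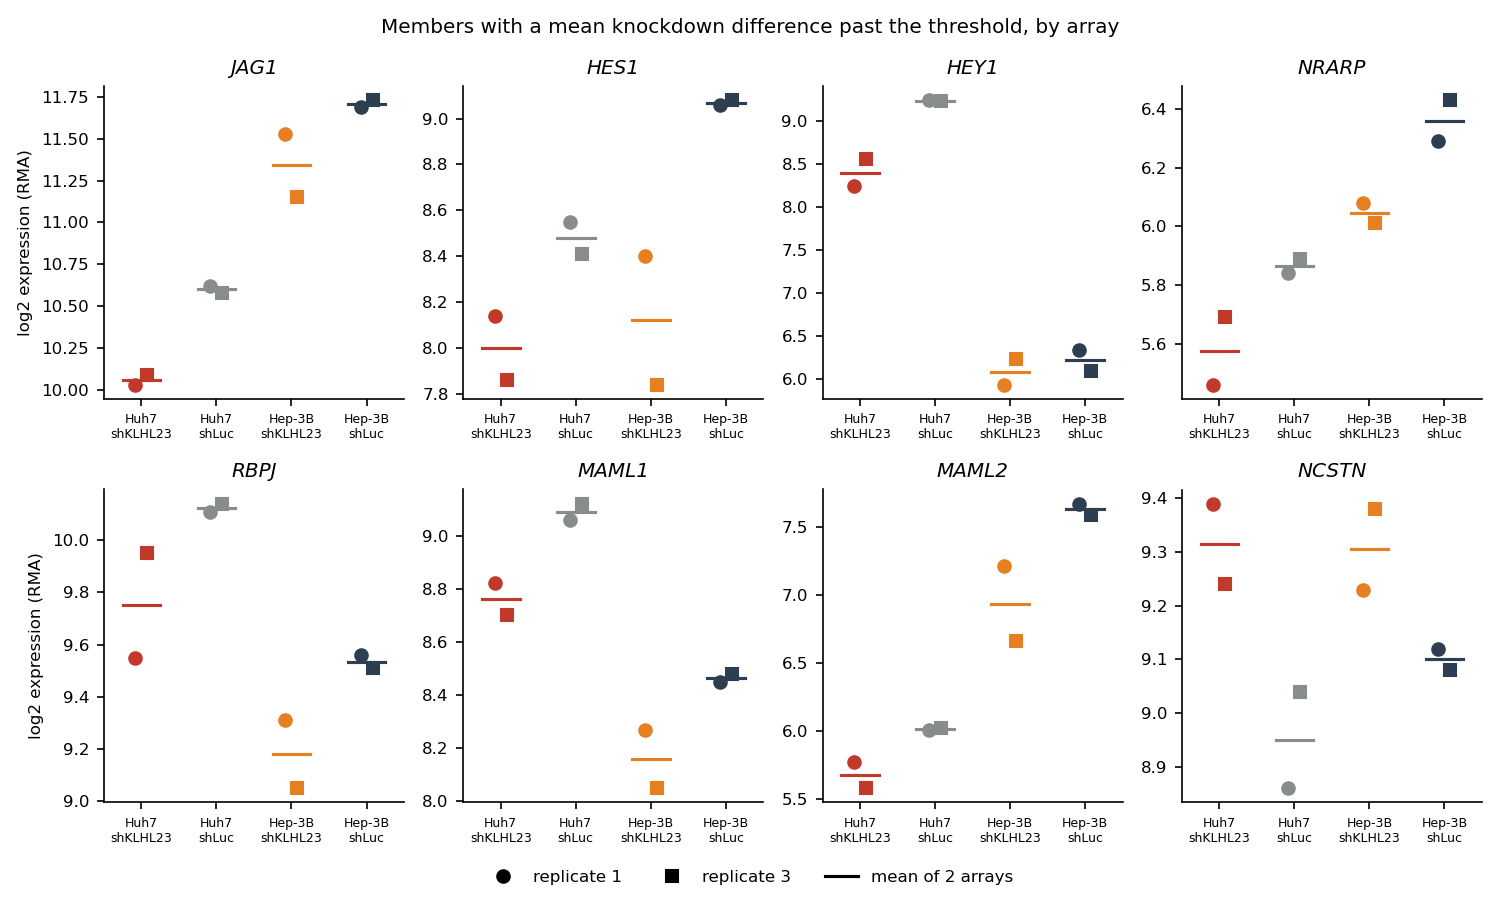
Log2 expression (vertical axis, RMA values, a separate scale in each panel) of the 8 genes whose mean knockdown difference passed, with a point per array and a line at each group's mean for Huh7 shKLHL23, Huh7 shLuc, Hep-3B shKLHL23 and Hep-3B shLuc. In 6 panels the shKLHL23 points lie below the shLuc points in both lines, in the panel of NCSTN they lie above, and in the panel of HEY1 they separate in Huh7 alone (8.24 and 8.56 against 9.24 and 9.23).

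Among the ligands, JAG1 carried the difference. JAG1, the ligand whose loss causes bile duct paucity in Alagille syndrome, was at 10.03 and 10.09 in Huh7 shKLHL23 and at 10.62 and 10.58 in Huh7 shLuc. In Hep-3B JAG1 was at 11.53 and 11.15 with shKLHL23 and at 11.69 and 11.73 with shLuc. The knockdown arrays lay below the control arrays in both lines. The difference was -0.54 ± 0.12 (moderated SE, n = 2 arrays per group, limma adjusted p = 0.0242) in Huh7 and -0.37 ± 0.12 (limma adjusted p = 0.168) in Hep-3B, and the mean of both was -0.45 ± 0.09 (limma adjusted p = 0.0116), a 1.37-fold lower level. The test of the difference between the lines gave -0.17 (limma adjusted p = 0.712). The Huh7 call was lost when any single Huh7 array was left out, with values between -0.57 and -0.51 and adjusted p between 0.0514 and 0.131.

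JAG1 had 6 probe sets, more than any other gene of the 37. Tested over all 41097 probe sets with a single gene, of which 10.6% were called in Huh7, the brightest 2 of the 6 passed there (-0.54 and -0.55). A further pair of sets lay lower on the knockdown arrays of both lines without passing in Huh7, at -0.44 and -0.54 there and at -0.57 and -0.63 in Hep-3B. The other 2 were dim, between 4.29 and 5.16. Of these, 1 also lay lower on the knockdown arrays of both lines without passing, at -0.18 in Huh7 and -0.42 in Hep-3B. The arrays of the last set overlapped in both lines.

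The remaining ligands passed in none of the 5 comparisons. DLL3, a ligand that acts inside the cell on Notch rather than across cells, lay above both Huh7 shLuc arrays on both Huh7 shKLHL23 arrays (0.35, limma adjusted p = 0.165), and its Hep-3B arrays overlapped. JAG2, DLL1 and DLL4 differed by between -0.25 and 0.14 in either line. DLL4 is best known from endothelium.

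None of the 4 receptors was called in either line. NOTCH1, the most studied receptor of the family, was at 4.26 and 4.71 in Huh7 shKLHL23 and at 4.85 and 4.82 in Huh7 shLuc. The Hep-3B values were 4.39 and 4.22 with shKLHL23 and 4.44 and 4.50 with shLuc. NOTCH1 lay below the array median on 5 of the 8 arrays, which limits how well its differences are measured. The groups did not overlap in either line, but the differences of -0.35 ± 0.14 in Huh7 (limma adjusted p = 0.158) and -0.16 ± 0.14 in Hep-3B (limma adjusted p = 0.638) did not pass, nor did their mean of -0.26 (limma adjusted p = 0.136). The 2 Huh7 shKLHL23 arrays were 0.46 apart for NOTCH1, the widest gap of the 37 genes in that group. Leaving out 1 array at a time gave -0.58 to -0.12 in Huh7, and the value without Huh7 shKLHL23 replicate 3 passed (limma adjusted p = 0.0172). The other NOTCH1 probe set had the opposite sign in Huh7, at 4.02 and 4.21 with shKLHL23 and 3.71 and 3.97 with shLuc (0.28, limma adjusted p = 0.242 over all probe sets), and the mean of both sets differed by -0.04.

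NOTCH2, the receptor that works with JAG1 in bile duct formation, was at 9.06 and 8.82 in Huh7 shKLHL23 and 8.89 and 8.93 in Huh7 shLuc, and those arrays overlapped. In Hep-3B shKLHL23 it was at 6.03 and 6.46, above the Hep-3B shLuc arrays at 5.75 and 5.92, and the difference of 0.41 ± 0.15 did not pass (limma adjusted p = 0.208). Without the first Hep-3B shKLHL23 array, on which KLHL23 was least reduced, it was among 4 genes called in Hep-3B. NOTCH3 and NOTCH4 stayed below the median of every array, between 4.19 and 4.47, and were not called.

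In the nuclear complex, a group of 4 genes, 3 were called lower in the mean of both lines, where 8.02% of all genes were. None of the 4 was called within a line by the probe set that stood for it. RBPJ, the DNA-binding protein on which canonical Notch signalling converges, was at 9.55 and 9.95 in Huh7 shKLHL23 and 10.11 and 10.14 in Huh7 shLuc. In Hep-3B it was at 9.31 and 9.05 with shKLHL23 and 9.56 and 9.51 with shLuc. The arrays did not overlap in either line, and the differences were -0.38 and -0.36 with a mean of -0.37 ± 0.10 (limma adjusted p = 0.0398). This value depended on the probe set: it was -0.20 (limma adjusted p = 0.116) over the mean of the 3 RBPJ probe sets and -0.03 (limma adjusted p = 0.91) with the dim set that remains when sets marked as less specific are left out.

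MAML1 and MAML2 encode coactivators of the Mastermind-like family, which bind the complex of RBPJ and the Notch intracellular domain. MAML1 was at 8.82 and 8.70 in Huh7 shKLHL23 and 9.06 and 9.12 in Huh7 shLuc, and in Hep-3B at 8.27 and 8.05 with shKLHL23 and 8.45 and 8.48 with shLuc. MAML2 was at 5.77 and 5.58 in Huh7 shKLHL23 and 6.01 and 6.02 in Huh7 shLuc, and in Hep-3B at 7.21 and 6.66 with shKLHL23 and 7.67 and 7.59 with shLuc. For both genes every knockdown array lay below the controls of its line. The mean difference was -0.32 ± 0.07 for MAML1 (limma adjusted p = 0.0212) and -0.52 ± 0.11 for MAML2 (limma adjusted p = 0.0191). Neither gene was called within a line.

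MAML3, the third coactivator of the family, did not pass with the probe set that stood for it, which differed by 0.20 in Huh7 and -0.02 in Hep-3B. Another of its 3 probe sets, low in Hep-3B, was picked out after its values had been seen. It was at 5.92 and 5.76 in Huh7 shKLHL23 and 6.33 and 6.46 in Huh7 shLuc, and at 2.30 and 2.55 in Hep-3B shKLHL23 and 2.55 and 2.57 in Hep-3B shLuc. Over all probe sets its Huh7 difference was -0.56 ± 0.12 (limma adjusted p = 0.0194), and that call was lost without 3 of the 4 Huh7 arrays in turn (adjusted p 0.0602 to 0.132). The 2 probe sets thus gave opposite signs in Huh7.

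**Figure D2:**
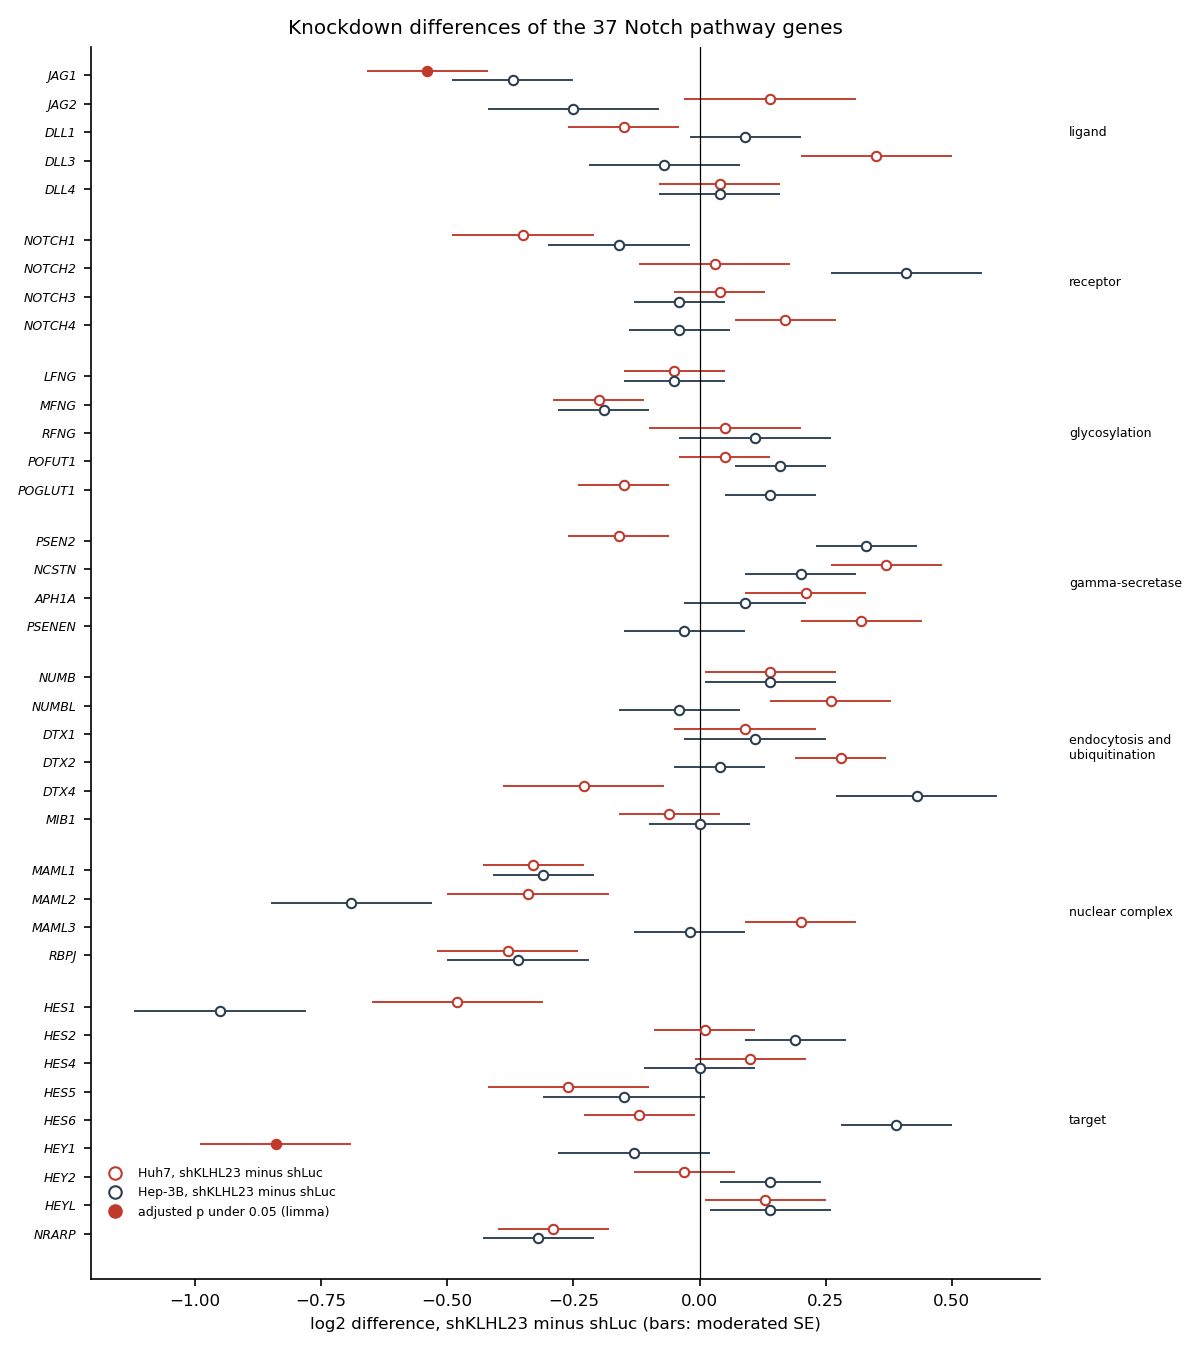
Log2 differences, shKLHL23 minus shLuc (horizontal axis, bars show the moderated SE), of all 37 genes ordered by role, for Huh7 and Hep-3B, with filled points past the threshold. Only JAG1 (-0.54) and HEY1 (-0.84) in Huh7 are filled, and the point furthest from 0 is HES1 in Hep-3B at -0.95.

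Among the 9 targets, HES1, HEY1 and NRARP were lower in the mean of both lines. HES1, a repressor that blocks differentiation in many tissues and the most widely used readout of the pathway, was at 8.14 and 7.86 in Huh7 shKLHL23 and 8.55 and 8.41 in Huh7 shLuc. In Hep-3B HES1 was at 8.40 and 7.84 with shKLHL23 and 9.06 and 9.08 with shLuc. No arrays overlapped. The difference was -0.48 ± 0.17 (limma adjusted p = 0.111) in Huh7 and -0.95 ± 0.17 (limma adjusted p = 0.0553) in Hep-3B, where it was the furthest from 0 of the 37. The mean of both was -0.71 ± 0.12 (limma adjusted p = 0.00823), a 1.64-fold lower level, and it passed without each array in turn (-0.85 to -0.58).

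The Hep-3B value of HES1 depended on single arrays and on the set of features tested. Without the first Hep-3B shKLHL23 array it was -1.23 (limma adjusted p = 0.00659), and without the other it was -0.67 (limma adjusted p = 0.223). Those arrays were 0.55 apart for HES1, the widest gap of the 37 in their group, and the lower value belonged to the array with less KLHL23. In Huh7 the order was the reverse. There HES1 was at 7.86 on the shKLHL23 array with KLHL23 at 5.88, and at 8.14 on the array with KLHL23 at 5.78. With 2 arrays per group, a relation between the levels of HES1 and KLHL23 was not tested. Tested over all probe sets, of which 1.52% were called in Hep-3B, both bright HES1 sets passed there at -0.95 (limma adjusted p = 0.0405 and 0.0342). The dim HES1 set stayed between 3.38 and 3.68 on all arrays.

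HEY1, a related repressor, was at 8.24 and 8.56 in Huh7 shKLHL23 and 9.24 and 9.23 in Huh7 shLuc. In Hep-3B HEY1 was at 5.94 and 6.24 with shKLHL23 and 6.34 and 6.10 with shLuc. The arrays separated in Huh7 and overlapped in Hep-3B. The Huh7 difference of -0.84 ± 0.15 (limma adjusted p = 0.00965), a 1.79-fold lower level, was the furthest from 0 of the 37 in that line, and the Hep-3B difference was -0.13 ± 0.15 (limma adjusted p = 0.724). The test of the difference between the lines gave -0.71 ± 0.21 (limma adjusted p = 0.162), so a difference in response between the lines was not shown. Its other probe set gave -0.86 in Huh7 (limma adjusted p = 0.0104 over all probe sets). The Huh7 call was lost without the first Huh7 shKLHL23 array (-0.68, limma adjusted p = 0.051) and without either Huh7 shLuc array (-0.84 each, limma adjusted p = 0.067 and 0.0653).

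NRARP, a target that feeds back to restrain the Notch complex, was at 5.46 and 5.69 in Huh7 shKLHL23 and 5.84 and 5.89 in Huh7 shLuc, and at 6.08 and 6.01 in Hep-3B shKLHL23 and 6.29 and 6.43 in Hep-3B shLuc. No arrays overlapped, the differences were -0.29 and -0.32, and their mean of -0.30 ± 0.08 passed (limma adjusted p = 0.0284). The other 6 targets were not called in either line. HES6, which in mouse opposes HES1, was lower on both Huh7 shKLHL23 arrays (7.41 and 7.48 against 7.49 and 7.64) and higher on both Hep-3B shKLHL23 arrays (7.92 and 8.14 against 7.69 and 7.59), with differences of -0.12 and 0.39. HES2, HES4, HES5, HEY2 and HEYL differed by between -0.26 and 0.19.

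Promoters were read for the RBPJ motif, because RBPJ binds the letters TGGGAA, in its preferred form GTGGGAA, which contains the shorter motif. RefSeq promoter windows on GRCh38.p14 matched 32 of the 37 genes, and the 250 bases before each start were searched on both strands. DLL1, DLL3, HEY1, MFNG and DTX1 were not searched here. GTGGGAA was present in 6 of the 32 (HES1, HES4, HES5, HEY2, HEYL and RBPJ) and in 6.69% of 27305 genes, counting a gene with a match in any of its windows of that length. TGGGAA was present in 10 of the 32 and in 24.6% of the 27305. The 150 bases before the start are shown, 5′ to 3′ on the strand of the gene, for 3 genes with a match and for 2 called genes without one, with each match to TGGGAA on either strand in capitals. They are HES1 (chr3:194135998-194136147, plus strand), HES4 (chr1:1000098-1000247, minus strand), RBPJ (chr4:26319596-26319745, plus strand, 1 of 5 windows of the gene), NRARP (chr9:137302272-137302421, minus strand) and JAG1 (chr20:10674000-10674149, minus strand).
HES1: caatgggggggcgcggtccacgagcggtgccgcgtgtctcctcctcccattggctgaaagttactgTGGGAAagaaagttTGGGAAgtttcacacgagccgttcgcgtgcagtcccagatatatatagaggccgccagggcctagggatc
HES4: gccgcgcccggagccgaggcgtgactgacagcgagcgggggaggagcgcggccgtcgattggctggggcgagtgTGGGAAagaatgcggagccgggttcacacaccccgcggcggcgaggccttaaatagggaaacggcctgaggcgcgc
RBPJ: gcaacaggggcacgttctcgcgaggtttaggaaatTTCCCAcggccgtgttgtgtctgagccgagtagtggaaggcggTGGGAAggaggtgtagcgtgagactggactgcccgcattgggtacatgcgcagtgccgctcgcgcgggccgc
NRARP: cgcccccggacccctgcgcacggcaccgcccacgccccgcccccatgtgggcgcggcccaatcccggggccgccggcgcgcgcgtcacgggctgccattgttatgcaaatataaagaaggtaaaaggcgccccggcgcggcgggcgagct
JAG1: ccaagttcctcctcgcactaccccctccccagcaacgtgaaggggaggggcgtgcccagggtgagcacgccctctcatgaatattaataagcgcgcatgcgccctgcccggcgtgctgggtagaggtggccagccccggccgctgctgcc

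In the HES1 promoter the matches begin 84 and 70 bases before the start on the same strand, and in that of HES4 1 match begins 76 bases before it. In that of RBPJ a match lies 72 bases before the start, and a further one lies 115 bases before it on the opposite strand. This RBPJ window was shown because it held the most matches of the 5, and the other windows of the gene held none. Of the 6 genes with GTGGGAA, HES1 and RBPJ were called lower in the mean of both lines. HES4, HES5, HEY2 and HEYL were not, but HES5 and HEY2 lay below the median of every array, which limits their differences. NRARP, JAG1, MAML1 and MAML2 were called lower and hold no match in the window. HEY1, called lower too, was not searched. The part of these matches in the differences was not tested.

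The 4 gamma-secretase subunits included the 1 gene that was called higher. NCSTN, nicastrin, the subunit with the large extracellular domain, was at 9.39 and 9.24 in Huh7 shKLHL23 and 8.86 and 9.04 in Huh7 shLuc. In Hep-3B NCSTN was at 9.23 and 9.38 with shKLHL23 and 9.12 and 9.08 with shLuc. The knockdown arrays lay above the controls in both lines, and the mean difference of 0.28 ± 0.08 passed (limma adjusted p = 0.0362), with 0.37 in Huh7 (limma adjusted p = 0.0551) and 0.20 in Hep-3B (limma adjusted p = 0.376). Averaged over its 2 probe sets the mean difference was 0.14 (limma adjusted p = 0.161).

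PSEN2, a catalytic presenilin, was at 6.92 and 6.80 in Huh7 shKLHL23 and 7.00 and 7.04 in Huh7 shLuc, and at 6.81 and 7.02 in Hep-3B shKLHL23 and 6.61 and 6.56 in Hep-3B shLuc. It was thus lower in Huh7 (-0.16) and higher in Hep-3B (0.33) without overlap of arrays. All 3 PSEN2 probe sets had these signs, at -0.24 to -0.16 in Huh7 and 0.26 to 0.33 in Hep-3B. The test between the lines gave -0.49 (limma adjusted p = 0.159). The subunits APH1A and PSENEN, which complete the complex, were at 0.21 and 0.32 in Huh7 and at 0.09 and -0.03 in Hep-3B, and neither was called.

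The glycosyltransferases and the adaptors and ubiquitin ligases, 5 and 6 genes, held no called gene in either line or in the mean of both. MFNG, which extends O-fucose on the receptor, was lower on every knockdown array than on the controls of its line, with differences of -0.20 in Huh7 and -0.19 in Hep-3B and a mean of -0.20 (limma adjusted p = 0.082). POGLUT1, which adds O-glucose, was at -0.15 in Huh7 and 0.14 in Hep-3B, again without overlap. DTX4, of the Deltex family of ubiquitin ligases, was highest on the Hep-3B shKLHL23 arrays (7.29 and 7.63, against 7.03 and 7.03 in shLuc, limma adjusted p = 0.213). The ubiquitin ligase MIB1, which drives ligand endocytosis, differed by -0.06 in Huh7 and 0.00 in Hep-3B.

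In Huh7 the knockdown arrays lay below the control arrays without overlap for 13 of the 37 genes and above for 7, where 27.2% and 26.5% of all genes did. In Hep-3B they lay below for 10 and above for 9, where 23.5% and 29.4% of all genes did. Over the 37 genes, 8 had knockdown arrays below the control arrays in both lines without overlap, namely NOTCH1, JAG1, HES1, NRARP, MFNG, MAML1, MAML2 and RBPJ. That is 21.6% of the 37, and 11.7% of all genes did the same. NCSTN alone lay above in both lines, 2.7% of the 37, where 12.4% of all genes did. HES6, PSEN2 and POGLUT1 separated in opposite directions in the lines, 8.11% of the 37 against 8.3% of all genes. The test of the difference between the lines called 0 of the 37 by limma, against 1.26% of all genes, and 5, or 13.5%, had an unadjusted p under 0.05, where 14.7% of all genes did. Over all probe sets it called 1.31% and none of the sets of these genes.

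The control groups of the lines differed far more than knockdown and control did. Between Huh7 shLuc and Hep-3B shLuc, 16 of the 37 genes were called, or 43.2%, against 32.7% of all genes. Of these, 8 were lower in Huh7, where 14.9% of all genes were, and 8 were higher, where 17.7% were. The Huh7 shLuc arrays lay below those of Hep-3B shLuc without overlap for 16 of the 37 and above for 12, where 31.6% and 35.5% of all genes did. The median difference of the 37 was -0.06, and 4 of them differed by more than 1 in size: NOTCH2, HEY1, MAML2 and JAG1. The Huh7 shLuc and Hep-3B shLuc arrays entered the knockdown comparisons too.

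**Figure D3:**
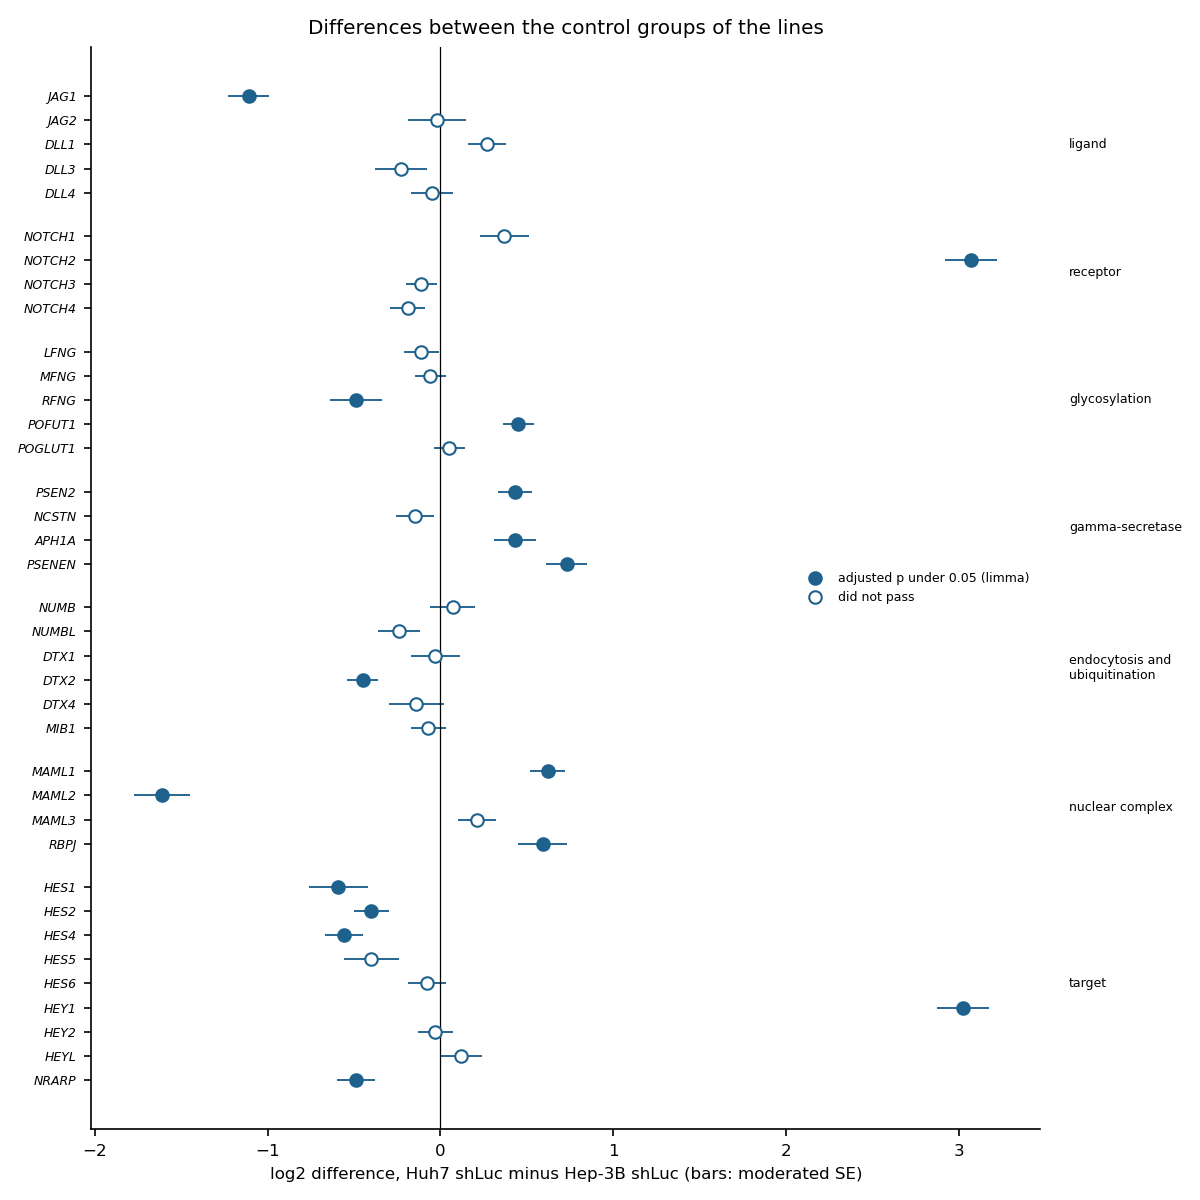
Log2 differences, Huh7 shLuc minus Hep-3B shLuc (horizontal axis, bars show the moderated SE), of the 37 genes ordered by role, with filled points past the threshold. NOTCH2 (3.07) and HEY1 (3.02) lie far to the right, MAML2 (-1.61) and JAG1 (-1.11) to the left, and the other 33 lie within 1 of 0.

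NOTCH2 was at 8.89 and 8.93 in Huh7 shLuc and 5.75 and 5.92 in Hep-3B shLuc, a difference of 3.07 ± 0.15 (limma adjusted p = 1.31e-06) or 8.41-fold. Its 4 probe sets had the same sign and varied in size between 0.58 and 3.11. A further probe set was paired with NOTCH2 and its near-identical NOTCH2NL copies together and was left out, and whether the sets used also detect those copies was not tested. HEY1 was at 9.24 and 9.23 in Huh7 shLuc and 6.34 and 6.10 in Hep-3B shLuc, a difference of 3.02 ± 0.15 (limma adjusted p = 1.3e-06) or 8.11-fold. The MAML3 probe set that is low in Hep-3B showed the same order (3.83, limma adjusted p = 6.58e-08 over all probe sets, 29.6% of which were called), where the MAML3 set chosen by the rule gave 0.21. Its Hep-3B values lie below the lower quartile of every array, so the size of that difference is limited by the signal there.

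JAG1 and MAML2 ran the other way. JAG1 was 2.16-fold lower in Huh7 shLuc than in Hep-3B shLuc (-1.11 ± 0.12, limma adjusted p = 0.000167), and MAML2 was 3.06-fold lower (-1.61 ± 0.16, limma adjusted p = 9.51e-05). Huh7 thus had more of the receptor NOTCH2 and of HEY1, and Hep-3B had more of the ligand JAG1, of HES1 (-0.59, limma adjusted p = 0.029) and of NRARP (-0.49, limma adjusted p = 0.0066). RBPJ (0.59, limma adjusted p = 0.0113) and MAML1 (0.62, limma adjusted p = 0.00167) were higher in Huh7. The values of RBPJ and HES1 depended on the probe set. With the dim sets that remain when less specific sets are left out, they were 0.09 (limma adjusted p = 0.69) and -0.02 (limma adjusted p = 0.917).

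Smaller differences between the lines passed for 8 further genes. PSEN2 (0.43), APH1A (0.43) and PSENEN (0.73) were higher in Huh7 shLuc, so 3 of the 4 gamma-secretase subunits passed in that direction, and NCSTN at -0.15 did not pass. PSENEN was at 7.89 and 7.95 in Huh7 shLuc and 7.18 and 7.21 in Hep-3B shLuc. APH1A was at 8.68 and 8.81 in Huh7 shLuc and 8.33 and 8.30 in Hep-3B shLuc. Over the mean of its probe sets APH1A gave 0.30 and did not pass (limma adjusted p = 0.0814). POFUT1, which attaches the first fucose to the receptor, was also higher, at 7.55 and 7.60 in Huh7 shLuc and 7.16 and 7.09 in Hep-3B shLuc. The genes lower in Huh7 shLuc were HES2, HES4, RFNG and DTX2. HES4, a HES1 relative that mice lack, was at 6.76 and 6.97 in Huh7 shLuc and 7.44 and 7.41 in Hep-3B shLuc. HES2 was at 5.52 and 5.59 in Huh7 shLuc and 5.88 and 6.03 in Hep-3B shLuc. RFNG, of the Fringe family, was at 7.69 and 7.91 in Huh7 shLuc and 8.39 and 8.18 in Hep-3B shLuc, and DTX2 was at 5.03 and 5.10 in Huh7 shLuc and 5.49 and 5.55 in Hep-3B shLuc. None of these arrays overlapped between the lines, and the limma adjusted p of the 8 lay between 0.00189 and 0.0362.

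**Figure D4:**
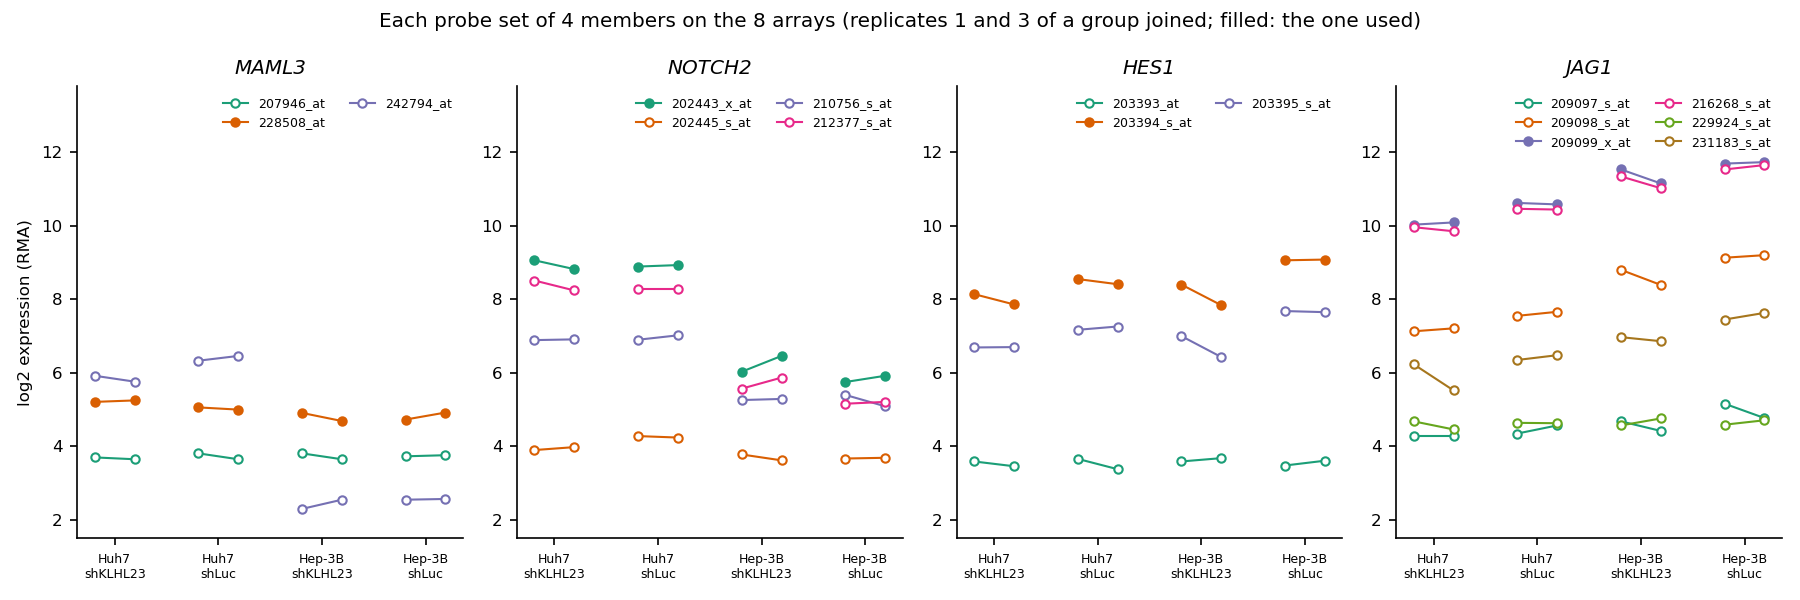
Log2 expression (vertical axis, RMA values) of each probe set of MAML3, NOTCH2, HES1 and JAG1 in the 4 groups, with the 2 arrays of a group joined and filled points for the probe set that stood for the gene. One MAML3 probe set lies near 2.30 to 2.57 in Hep-3B and 5.76 to 6.46 in Huh7, while the set used stays between 4.69 and 5.25.

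Further genes of the pathway were taken from a list of 54, of which 50 could be measured by a probe set of their own. That list was chosen with earlier results of these data known, so its shares of called genes describe the list and test nothing. In Huh7, 14 of the 50 were called by limma, or 28%, against 13.5% of all genes, with 13 lower and 1, the demethylase KDM5A, higher. Leaving out single arrays gave 4 to 15 calls in Huh7, and ADAM17 and KAT2B passed in all 18 alternative settings. The median difference of the 50 was -0.09 in Huh7 and -0.02 in Hep-3B. In Hep-3B 0 of the 50 were called by limma, and 15, or 30%, had an unadjusted p under 0.05, 9 of them lower, where 17.7% of all genes had one. Without Hep-3B shKLHL23 replicate 1, 8 of the 50 were called there. The mean of both lines called 13 of the 50, or 26%, against 15.6% of all genes, with 11 lower and 2, GXYLT1 and RITA1, higher, and it called 8 without Huh7 shLuc replicate 3 or Hep-3B shLuc replicate 3. The called genes lay among the proteases, glycosylation genes, cofactors, non-canonical ligands and targets.

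The proteases ADAM17, FURIN and ADAM10 fell in Huh7. APH1B, a gamma-secretase subunit listed with them, differed by 0.10 there and was not called (limma adjusted p = 0.763). ADAM17, a metalloprotease that can cleave Notch at the cell surface, was at 7.59 and 7.54 in Huh7 shKLHL23 and 8.56 and 8.56 in Huh7 shLuc (-0.99 ± 0.09, limma adjusted p = 0.000968). In Hep-3B it was at 8.51 and 8.34 with shKLHL23 and 8.59 and 8.60 with shLuc (-0.17, limma adjusted p = 0.386). The difference between the lines passed. FURIN, which cuts the receptor precursor in the Golgi, fell by 0.44 in Huh7 (limma adjusted p = 0.0159). So did ADAM10, the protease that cleaves ligand-bound Notch, by 0.44 (limma adjusted p = 0.0475), but its call was lost in 13 of 18 alternative settings. In Hep-3B the differences were 0.02 for FURIN and -0.06 for ADAM10.

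Of the 17 cofactors and corepressors, 6 fell in Huh7. KAT2B, an acetyltransferase recruited by Mastermind-like proteins, was at 4.44 and 4.49 in Huh7 shKLHL23 and 6.12 and 6.18 in Huh7 shLuc (-1.69 ± 0.13, limma adjusted p = 0.000528), and at 4.53 and 4.19 in Hep-3B shKLHL23 and 4.56 and 4.79 in Hep-3B shLuc (-0.31, limma adjusted p = 0.262). Its Huh7 shKLHL23 values lie below the medians of those arrays (4.597 and 4.585), which limits how well the size of the fall is measured. CREBBP, another acetyltransferase, fell by 0.60 (limma adjusted p = 0.0062), and the corepressors TLE3 and TLE1 fell by 0.81 (limma adjusted p = 0.00654) and by 0.47 (limma adjusted p = 0.0438). SPEN and CTBP2, corepressors found with RBPJ, were the other two. CREBBP was at -0.19 (limma adjusted p = 0.163) over the mean of its probe sets, and the call was lost in 10 of 18 alternative settings for TLE1, 10 for SPEN and 9 for CTBP2. TLE1 differed by -0.50 in Hep-3B too, without passing (limma adjusted p = 0.0948).

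DLK1, a membrane protein related to the Delta ligands and known from fetal liver, had the largest difference of the 50 genes in Huh7. It was at 6.19 and 6.62 in Huh7 shKLHL23 and 8.30 and 8.47 in Huh7 shLuc (-1.98 ± 0.14, limma adjusted p = 0.000453), a 3.95-fold lower level. In Hep-3B it was at 10.81 and 10.83 with shKLHL23 and 10.85 and 10.88 with shLuc (-0.05, limma adjusted p = 0.911). The other DLK1 probe set, which replaces the first when less specific sets are left out, gave 0.14 in Huh7 (limma adjusted p = 0.495).

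Among the 7 further targets, MYC, SOX9 and ID1 fell in Huh7. The oncogene MYC was at 11.00 and 11.09 in Huh7 shKLHL23 and 11.87 and 11.88 in Huh7 shLuc (-0.83 ± 0.18, limma adjusted p = 0.0182), and at 11.27 and 10.63 in Hep-3B shKLHL23 and 11.78 and 11.75 in Hep-3B shLuc (-0.82, limma adjusted p = 0.0742). SOX9, a transcription factor of bile duct cells and liver progenitors, was at 11.08 and 10.84 in Huh7 shKLHL23 and 11.52 and 11.52 in Huh7 shLuc (-0.56 ± 0.12, limma adjusted p = 0.0208), and at 10.17 and 9.89 in Hep-3B shKLHL23 and 10.63 and 10.72 in Hep-3B shLuc (-0.64, limma adjusted p = 0.0624). ID1 fell by 0.60 in Huh7 (limma adjusted p = 0.0129) and differed by -0.28 in Hep-3B. MYC, SOX9 and ID1 were all called lower in the mean of both lines, at -0.83, -0.60 and -0.44 (limma adjusted p = 0.00554, 0.00478 and 0.0101), and each of them is also regulated outside the Notch pathway. BHLHE40, a basic helix-loop-helix repressor, was not called within a line but was lower in the mean of both (-1.04, limma adjusted p = 0.0212), at 7.61 and 8.04 in Huh7 shKLHL23 and 8.35 and 8.46 in Huh7 shLuc, and at 9.36 and 8.08 in Hep-3B shKLHL23 and 10.24 and 10.22 in Hep-3B shLuc. Its mean difference did not pass in 6 of 17 alternative settings.

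**Figure D5:**
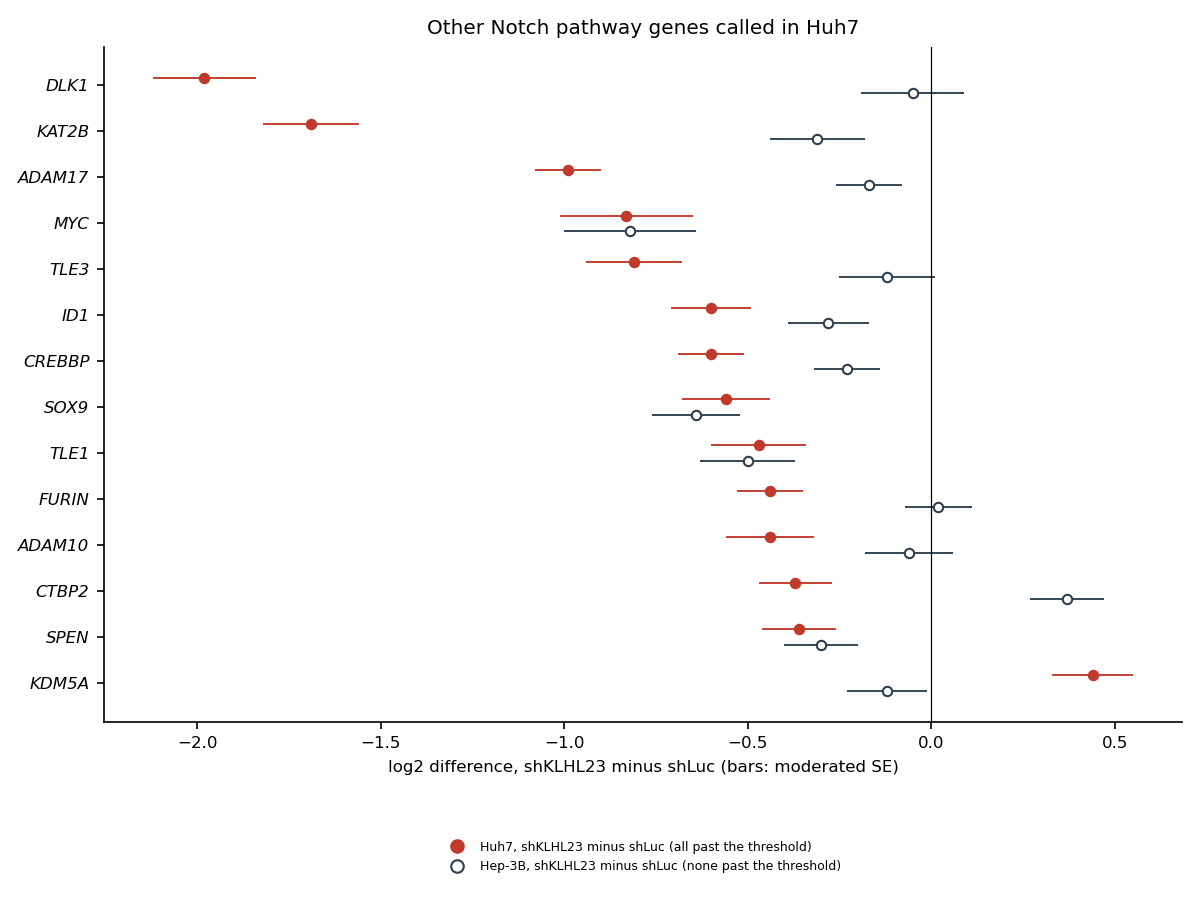
Log2 differences, shKLHL23 minus shLuc (horizontal axis, bars show the moderated SE), of the 14 other pathway genes called in Huh7, for Huh7 and Hep-3B. DLK1 (-1.98) and KAT2B (-1.69) lie furthest from 0 in Huh7, KDM5A (0.44) is the 1 gene to the right, and no Hep-3B point passed.

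Markers of bile duct cells did not move as a group with these falls. Of the 5 on the list, KRT19 (1.32, limma adjusted p = 0.00212) and EPCAM (0.36, limma adjusted p = 0.0293) rose in Huh7, SOX9 fell, and KRT7 and CFTR were not called. The mean level of the 5 was 8.04 to 8.16 on the Huh7 shKLHL23 arrays and 7.89 to 7.95 on the Huh7 shLuc arrays, and in Hep-3B 8.56 to 8.59 with shKLHL23 and 8.60 to 8.69 with shLuc. Their part in the differences of the 37 genes was not tested. The 5 endothelial markers held 0 genes called by limma in either line, and 1 had an unadjusted p under 0.05 in each.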

How the data were processed

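The submitters' processing notes name RMA and Affymetrix Expression Console 1.2, and the deposited values are on the log2 scale. RMA subtracts background, gives all arrays the same distribution and summarises the probes of a set; it compresses differences of dim probe sets and hides changes in total RNA. The sources used here do not give its other settings. The platform annotation paired 41097 of 54675 probe sets with a single gene, which gave 19775 genes with no filter on level.

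The test was limma 3.58.1 (R 4.3.3): 1 fit of 4 group means to all 8 arrays, eBayes, and Benjamini-Hochberg adjustment over all genes, with calls at an adjusted p under 0.05. The 2 arrays per group (4 residual and 4.59 prior degrees of freedom) limit the precision. No label says whether replicates were separate cultures, so the p-values cover the spread between arrays only, and that spread can be technical.

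The 37 genes, the 54 others and the marker lists were chosen with earlier results of these data known. Values on every array are given for NOTCH1, HES1, HEY1, JAG1 and genes of the 37 called in a knockdown comparison. The same holds for those whose knockdown difference reached 0.5 in size. For genes called between the control groups alone, at least the values on the shLuc arrays are given. Of the others, at most the 10 furthest from 0 among those called in a line were named, some by their differences alone. KDM5A, SPEN, CTBP2, ADAM10, BHLHE40, GXYLT1, RITA1 and TTR lie outside that rule and were named after their values had been seen. A self-test on simulated data with 200 changed genes was run. Promoter windows came from RefSeq (GRCh38.p14). The alternatives were further quantile normalisation, median centring, a filter on dim genes, other choices of probe set, an intensity trend with robust eBayes, array weights, each line alone, a replicate block and leaving out each array.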

Additional observations from a re-analysis of the deposited data

Results flagged for a closer look

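In the test of whether the knockdown difference in Huh7 departs from that in Hep-3B, 4 of the 50 other pathway genes passed. That is 8% of a list chosen with earlier results of these data known, against 1.26% of all genes. All 4 differences lay lower in Huh7. ADAM17 differed between the lines by -0.82 (limma adjusted p = 0.034), KAT2B by -1.38 (limma adjusted p = 0.0175) and DLK1 by -1.94 (limma adjusted p = 0.00837); each was called lower in Huh7 and not called in Hep-3B. KAT2B lay between 4.19 and 4.79 on the Hep-3B arrays, whose medians were 4.563 to 4.581, which limits how well a difference there is measured. Its Hep-3B knockdown arrays lay below the controls without passing (-0.31, limma adjusted p = 0.262). CTBP2 differed by -0.75 (limma adjusted p = 0.045), was called lower in Huh7 (-0.37, limma adjusted p = 0.0373) and was not called in Hep-3B (0.37, limma adjusted p = 0.0994): it was at 7.30 and 7.16 in Huh7 shKLHL23 and 7.53 and 7.67 in Huh7 shLuc, and at 5.67 and 5.66 in Hep-3B shKLHL23 and 5.26 and 5.32 in Hep-3B shLuc. These calls were lost in 8 of 17 alternative settings for ADAM17, 5 for KAT2B, 10 for CTBP2 and 4 for DLK1. KLHL23 itself was reduced unevenly on the Hep-3B arrays, and the part of that in these differences was not tested.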

How the results depend on the processing

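Of the 37 genes, 2 were called in Huh7, 0 in Hep-3B, 8 in the mean of both lines, 16 between the control groups and 0 in the test between lines. In Hep-3B the count became 1 with median centring, with the filter on dim genes or with all probe sets tested, and 2 with the intensity trend or with array weights. Without 1 array it ranged from 0 to 4, the 4 (NOTCH2 higher, JAG1, HES1 and MAML2 lower) arising without Hep-3B shKLHL23 replicate 1. In Huh7 the count became 5 with the dim filter and 4 with the trend. Without 1 array it ranged from 0 to 5, with 0 without Huh7 shKLHL23 replicate 1 or either Huh7 shLuc array and 5 without Huh7 shKLHL23 replicate 3. The mean of both lines gave 6 to 9 calls in other settings and 2 to 9 without 1 array: 2 without any 1 of the 4 shLuc arrays, 4 without Hep-3B shKLHL23 replicate 3 and 5 without Huh7 shKLHL23 replicate 1. The control groups gave 13 to 18 in other settings and 8 to 17 without 1 array, with 8 without Hep-3B shLuc replicate 3. The test between lines called 0 in all of these.

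With a replicate block the counts were 2 in Huh7, 2 in Hep-3B (HES1 and MAML2), 7 in the mean, 15 between control groups and 0 between lines. Replicate numbers did not pair the samples: deviations of same-numbered arrays correlated between -0.09 and 0.09. Among all genes, each line fitted alone gave 1578 calls in Huh7 and 0 in Hep-3B, against 2666 and 137; the trend gave 850 and the block 423 in Hep-3B.

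Signs turned in 10 of 1229 alternative values of single genes. Over the mean of each gene's probe sets the difference between lines was 0.05 for NOTCH1 and 0.01 for JAG1. With _x_at and _s_at sets left out it was -0.09 for HES1, whose dim set then gave 0.09 in Hep-3B and 0.04 in the mean, and DLK1 gave 0.14 in Huh7 and 0.17 in the mean. Leaving out 1 array at a time, HEY1 in Hep-3B ranged from -0.28 to 0.02 and JAG1 between lines from -0.36 to 0.02, both turning without Hep-3B shKLHL23 replicate 1, and NOTCH1 between lines ranged from -0.42 to 0.04, turning without Huh7 shKLHL23 replicate 1. Calls were lost with the sign kept in 191 of the 1229 values, were lost with the sign turned in 3 (DLK1 in Huh7 and in the mean, HES1 in the mean) and were gained in 19. The causes were not tested. Calls among the 50 other genes in Huh7 ranged from 9 to 16, and from 4 to 15 without 1 array. Differences of NOTCH3, NOTCH4, DLL1, HES5 and HEY2, below the median of every array, are limited by signal over background.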
